A study of Mus musculus with 11 samples.

Results

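Neat1 and 4 protein-coding genes that lie near Malat1 on mouse chromosome 19, namely Frmd8, Ltbp3, Slc25a45 and Tigd3, were followed in single-nucleus RNA sequencing of mouse brain. These 5 genes were taken by symbol from the 25938 genes of the deposited matrix, and each was found once. The study dosed mice intravenously with an antisense oligonucleotide (ASO) directed at Malat1, either free or coupled to a carrier protein, and counted nuclear RNA molecules (unique molecular identifiers, UMIs) in 11 libraries. Every mouse carried a knock-in of the human transferrin receptor (TfR) on both alleles (genotype label hTfR KI HOM). Dosing was repeated to 4 doses, with sampling 72 h after the final dose. The control was ATV:BACE1, which binds TfR and has no ASO (57 mg/kg, n = 3). In OTV:Malat1 the ASO is coupled to a molecule that binds TfR (60 mg/kg, n = 3), and in nonTV:Malat1 to one that does not (60 mg/kg, n = 3). Malat1 ASO is the oligonucleotide alone (2.5 mg/kg, n = 2). Libraries are numbered 1, 4 and 5 in each group, with number 4 missing from the Malat1 ASO libraries used here. Number 1 marks females aged 2.33 months, number 4 males aged 2.57 months and number 5 males aged 2.33 months. The labels call the region posterior, whereas the deposited metadata say cortex and strain C57BL/6J.

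Malat1 and Neat1 are neighbouring long non-coding RNAs that stay in the nucleus. Malat1 gathers at nuclear speckles, which store splicing factors. Neat1 is the scaffold of paraspeckles, nuclear bodies that assemble on its long isoform together with the proteins Sfpq, Nono and Pspc1. An ASO with a DNA-like core pairs with its target RNA and has it cut by RNase H in the nucleus, so that any effect on genes beside the target locus, or on RNAs that share sequence with it, can be asked from the same data. Frmd8 binds the iRhom proteins that guide a cell surface protease, Ltbp3 is a secreted protein that binds latent TGF-beta, Slc25a45 belongs to the mitochondrial carrier family, and Tigd3 derives from a transposase.

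In mm10 coordinates Malat1 occupies chr19:5795690-5802672 on the minus strand. Neat1 lies 22.0 kb beyond its start at chr19:5824708-5845478, also on the minus strand. Its long isoform is unspliced and 20771 bases long, and its short isoform has 3004 bases. Frmd8 follows at chr19:5849702-5875274 (minus strand, 47.0 kb from Malat1), then Slc25a45 at chr19:5877808-5885878 (plus strand, 75.1 kb) and Tigd3 at chr19:5891138-5894149 (minus strand, 88.5 kb). Ltbp3 lies on the other side of Malat1, at chr19:5740904-5758532 on the plus strand and 37.2 kb away. Frmd8 overlaps the antisense gene Frmd8os by 1687 bases. Whether reads were counted by strand is not given in the sources used here, so counts in that overlap may belong to either partner. The counts do not separate the isoforms of Neat1.

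**Figure D1:**
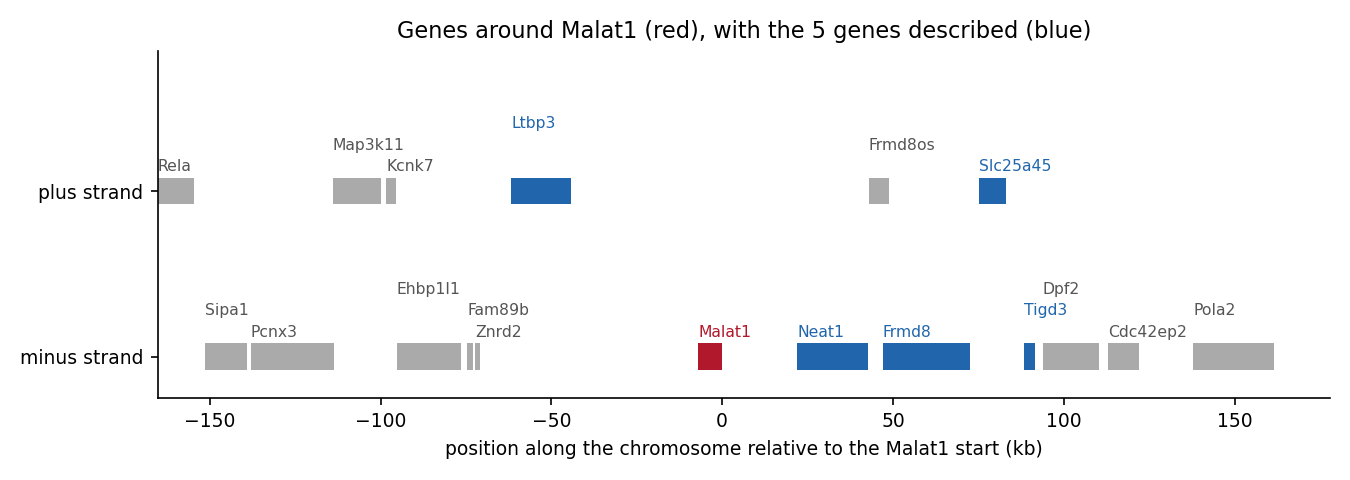
Map of listed genes around Malat1 (not every gene is drawn), drawn to scale on both strands, with the position relative to the Malat1 start in kb on the horizontal axis. Malat1 is red, the 5 genes described are blue and other listed genes are grey. Neat1 starts the row of genes on one side, and Ltbp3 lies 37.2 kb away on the other.

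The RNAs were compared with Malat1 in sequence, because an ASO can act where its target sequence recurs. The ASO's own sequence was not analysed here. Of 6968 different 16-base windows in the Malat1 transcript, 27 also occurred in Neat1, all of them in its long isoform, and 0 occurred in any annotated transcript of Frmd8, Ltbp3, Slc25a45 or Tigd3. At 12 bases Neat1 shared 63 windows, Frmd8 8, Ltbp3 10, Slc25a45 4 and Tigd3 4, while the short isoform of Neat1 shared 0. Introns, which RNA in the nucleus can still hold, are not part of these transcripts and were not searched. The 27 windows of 16 bases form 3 stretches, shown here because they are the whole of the sequence shared between these transcripts at that length. The first is found in transcripts of 207 of 55450 annotated genes and the second in 402, so both recur widely. The third is found in 2 genes, Malat1 and Neat1.
Shared stretch of 29 bases, Malat1 bases 603 to 631: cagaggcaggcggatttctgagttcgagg
Shared stretch of 27 bases, Malat1 bases 657 to 683: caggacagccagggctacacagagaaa
Shared stretch of 16 bases, Malat1 bases 6640 to 6655: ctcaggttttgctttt

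The third stretch belongs to the 3′ end that both RNAs are known for, where U-rich runs fold onto an A-rich tract encoded in the genome and form a triple helix that protects an end without a poly(A) tail. The 90 bases that end at the A-rich tract are shown for both, from the minus strand of mm10, because the third stretch lies in them. Capitals mark the 3 stretches of at least 10 bases that both ends hold. The end of the short Neat1 isoform is shown for contrast, with the polyadenylation signal AATAAA in capitals.
Malat1, chr19:5795982-5796071: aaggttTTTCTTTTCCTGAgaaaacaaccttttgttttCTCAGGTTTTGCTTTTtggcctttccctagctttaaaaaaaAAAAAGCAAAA
Neat1 long isoform, chr19:5824708-5824797: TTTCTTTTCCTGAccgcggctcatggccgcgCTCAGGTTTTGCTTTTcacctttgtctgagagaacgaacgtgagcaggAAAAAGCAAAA
Neat1 short isoform, chr19:5842307-5842366: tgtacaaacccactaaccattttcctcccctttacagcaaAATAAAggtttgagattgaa

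In 110304 nuclei, the median depth was 2859 UMIs. The libraries held from 33235994 to 43972886 UMIs, in 7546 to 13840 nuclei each. Counts were summed per library, for all nuclei and for each deposited class name, and levels are given as CPM, the UMIs of a gene scaled to the same total of that class in that library. That total includes Malat1, so a fall of Malat1 alone raises the CPM of the other genes. In oligodendrocytes after OTV:Malat1, total counts gave a median log2 change of 0.10 over all genes, with 70.6% of genes higher. The normalization used in the main tests gave 0.00 and 50.1%. Class names held up against their markers in neurons, oligodendrocytes, astrocytes, microglia, endothelium and leptomeningeal cells, whose fixed markers were each highest in that class. The nuclei named pericytes carried the endothelial genes Cldn5 at 2178 CPM and Flt1 at 4281 CPM beside the pericyte gene Vtn at 2529 CPM. The pericyte genes Pdgfrb, Kcnj8 and Abcc9 had 564, 158 and 360 CPM there. They were higher in the nuclei named smooth muscle, at 998, 175 and 775 CPM, beside the smooth muscle gene Acta2 at 462 CPM. Those named Glia were led by the choroid plexus gene Ttr at 3724 CPM, a transcript found in every class at 355 CPM or more, and are called the Ttr-rich class here. Of 108788 cell barcodes, 1495 (1.37%) occurred in more than 1 library. Fewer transcribing nuclei and less RNA per nucleus cannot be told apart in these sums.

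Neat1 was the member with the most molecules, 55030 UMIs, and its level was highest in oligodendrocytes. Over the 11 libraries its level in oligodendrocytes ran from 1112 to 1526 CPM (mean 1322 ± 131 SD, n = 11). In neurons it ran from 49.3 to 88.4 CPM (62.2 ± 14.1 SD, n = 11). The ranges of the 2 classes lie far apart. Leptomeningeal cells came second with 390 to 959 CPM (683 ± 165 SD, n = 11). Microglia (359 ± 126), the Ttr-rich class (346 ± 90.9), endothelium (323 ± 98.6), astrocytes (279 ± 37.3) and pericytes (253 ± 51.2 CPM, SD over 11 libraries each) lay close together below them. Smooth muscle nuclei had 228 ± 120 CPM (SD, n = 8). Perivascular macrophages had 20 nuclei or more in 1 library, with 712 CPM of Neat1 there from 15 UMIs. Pooled over libraries they held 541 CPM, from 75 UMIs. They are left out of this order and of those below.

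Neighbouring classes in that order were compared within libraries, with an exact two-sided sign-flip permutation test of log2 CPM adjusted by Benjamini-Hochberg over the 40 neighbouring pairs of the 5 genes. For Neat1, oligodendrocytes exceeded leptomeningeal cells by 0.99 ± 0.41 on the log2 scale (SD, n = 11, higher in 11 of 11 libraries, exact adjusted p = 0.0195). Leptomeningeal cells exceeded microglia by 0.96 ± 0.77 (SD, n = 11, 10 of 11 libraries, exact adjusted p = 0.0293). The steps from microglia down to smooth muscle did not pass the test, with mean differences of 0.01 to 0.24. The last step, from smooth muscle to neurons, was 1.77 ± 0.73 and held in 8 of 8 libraries, where the exact adjusted p was 0.0625 and 8 libraries allow no unadjusted p under 0.0078.

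**Figure D2:**
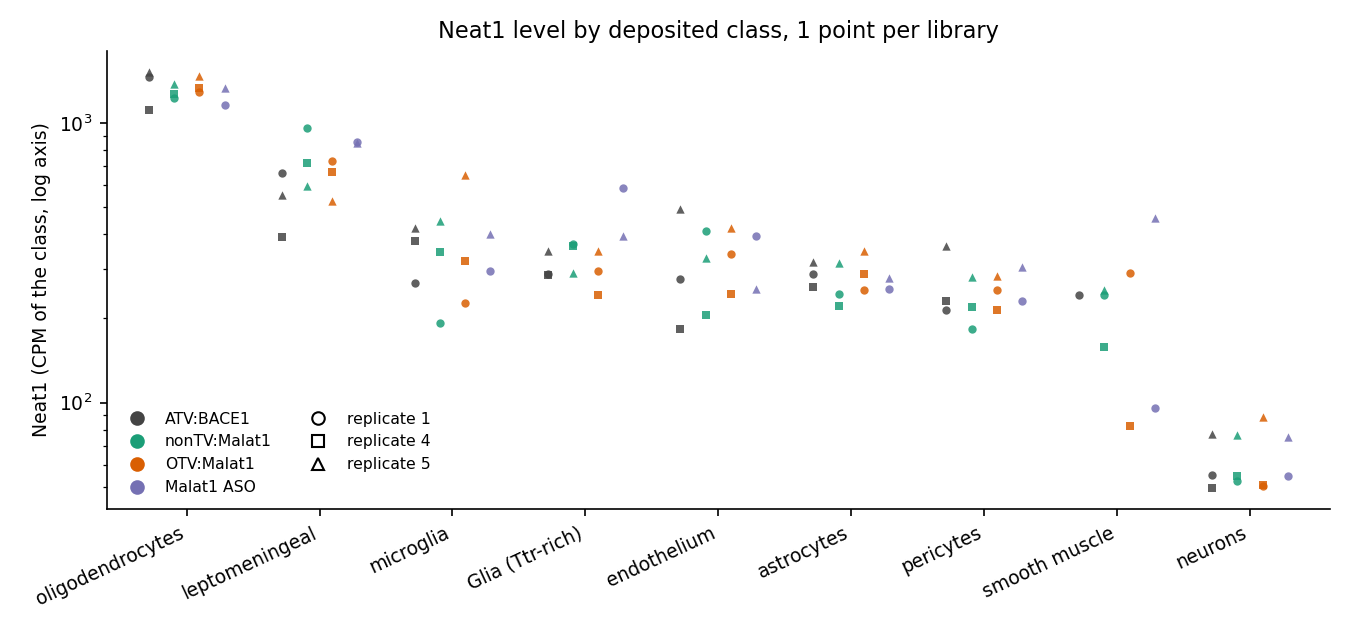
Neat1 level in CPM on a log axis for each deposited class, 1 point per library with at least 20 nuclei of the class. Colours are the 4 dosing groups and shapes the replicate numbers. Oligodendrocytes lie between 1112 and 1526 CPM in every group and neurons between 49.3 and 88.4 CPM.

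The share of nuclei with Neat1 gave the same picture at equal depth. Each nucleus was thinned to 500 UMIs, after which 45.8 ± 3.41% of oligodendrocyte nuclei kept at least 1 Neat1 UMI (SD, n = 11), against 2.69 ± 0.53% of neurons. Without thinning these shares were 64.5% and 14.2%, at median depths of 947 UMIs in oligodendrocytes and 3926 in neurons. Thinned shares were 23.4% in leptomeningeal cells, 15.9% in the Ttr-rich class, 14.2% in endothelium and 10.8% in astrocytes. Free RNA in droplets gives low shares in every class, and its part in the 2.69% of neurons was not tested.

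Within the oligodendrocyte class the deposited clusters differed in Neat1. Cluster 3, which held 12991 of the 14321 oligodendrocyte nuclei, had 1239 to 1709 CPM of Neat1 (median 1546). The 779 nuclei of cluster 5 had 141 to 587 CPM (median 312), below cluster 3 in every library. The same cluster 5 nuclei carried the precursor markers Pdgfra, Cspg4 and Vcan at a summed median of 1145 CPM, against 39.3 CPM in cluster 3, and the myelin genes Mbp, Mog and Mobp at 3280 against 6584 CPM. Neurons also differed by cluster. Neat1 was lowest in cluster 1, at 10.9 to 34.8 CPM over 22208 nuclei, and had 293 to 478 CPM in the 1912 nuclei of cluster 9 and 183 to 712 CPM in the 674 nuclei of cluster 6. In neuron clusters 1, 0, 2, 5, 8, 7, 9 and 3 the median of Neat1 was 16.4, 48.7, 56.9, 87.2, 184, 245, 348 and 1263 CPM. The median of the summed myelin genes rose in the same order, with 134, 254, 297, 341, 446, 529, 1443 and 4149 CPM. Cluster 6, with 467 CPM of Neat1 and 437 CPM of myelin genes, departed from that order. Clusters 3, 6, 7 and 8 held 296, 674, 458 and 263 of the nuclei named neurons, but most of their nuclei carried other names. Cluster 6 also held 1624 leptomeningeal, 1083 endothelial and 898 pericyte nuclei, cluster 7 held 1163 microglia and cluster 8 1512 Ttr-rich nuclei. The leptomeningeal nuclei of cluster 6 had a Neat1 median of 769 CPM. How much of the Neat1 count in neurons comes from RNA of oligodendrocytes or of these other classes was not tested. Clusters were made from all genes of these nuclei, so these differences carry no test.

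**Figure D3:**
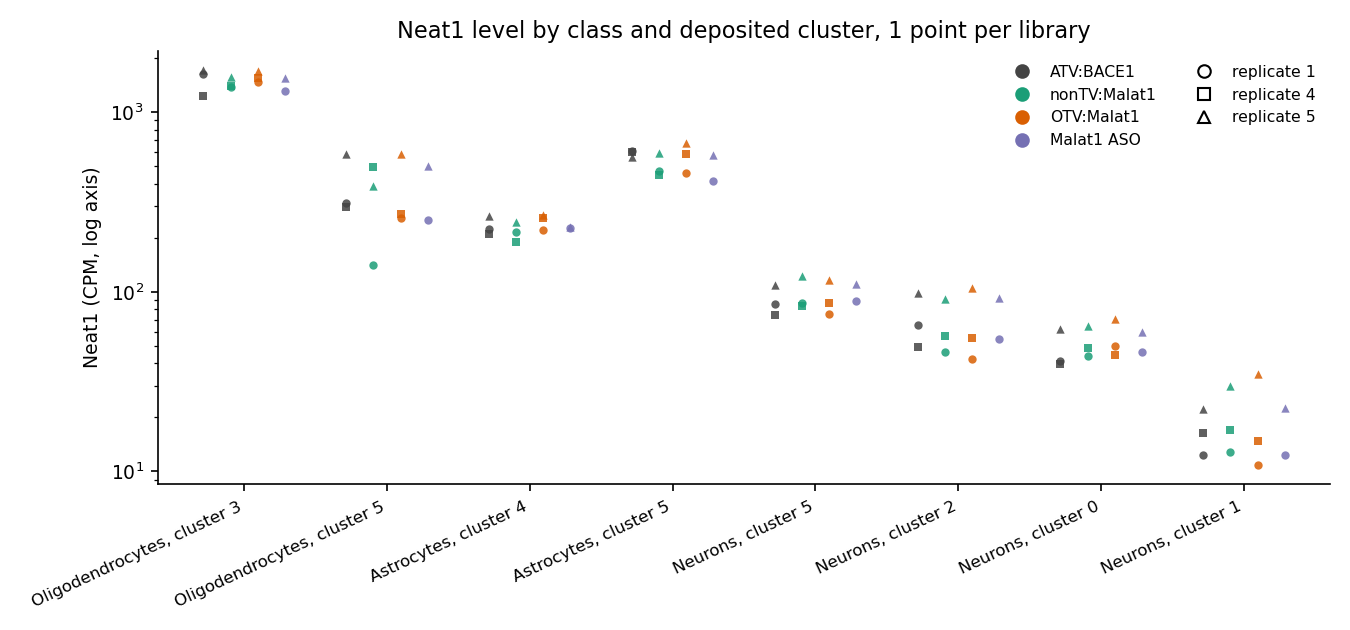
Neat1 level in CPM on a log axis for the larger clusters of oligodendrocytes, astrocytes and neurons, 1 point per library with at least 20 nuclei. Colours are dosing groups and shapes replicate numbers. Oligodendrocyte cluster 3 lies between 1239 and 1709 CPM and cluster 5 between 141 and 587 CPM, and in neuron clusters 0, 1, 2 and 5 the triangles of replicate 5 lie above the other shapes.

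Replicate 5 stood apart for Neat1 in neurons. Its 4 libraries, 1 in each dosing group, had 75.4 to 88.4 CPM, while the 7 libraries of replicates 1 and 4 had 49.3 to 55.0 CPM. In neuron clusters 0, 1, 2 and 5 each of the 4 replicate 5 libraries lay above all 7 others. In clusters 6, 7 and 9 this held for 0, 3 and 2 of the 4, and in cluster 6 replicate 5 had 183 to 705 CPM against 313 to 712 CPM in the others. Pericytes showed the same split, with 281 to 362 CPM against 183 to 253 CPM, and so did microglia, with 400 to 651 against 192 to 377 CPM. In oligodendrocytes (1327 to 1526 against 1112 to 1458 CPM) and astrocytes (278 to 349 against 222 to 288 CPM) the ranges overlapped. Overlap was also seen in leptomeningeal cells (527 to 848 against 390 to 959 CPM) and endothelium (254 to 491 against 183 to 411 CPM). The Ttr-rich class overlapped too (291 to 394 against 241 to 583 CPM). Deviations of libraries with the same number were correlated over 15333 genes (r from 0.45 to 0.82), so differences by number were not confined to Neat1. The share of all genes whose replicate 5 libraries separate in this way was not counted. Replicate numbers 1, 4 and 5 coincide with the deposited batch numbers 1, 3 and 4, so batch and replicate number cannot be told apart. Replicate 5 shares its sex with replicate 4 and its age with replicate 1. In neurons, summed microglia markers were also higher in replicate 5 (136 to 156 against 69.5 to 132 CPM), summed oligodendrocyte markers overlapped (252 to 318 against 222 to 328 CPM), and the median depth was 2567 to 3830.5 against 3728 to 5259 UMIs. Their part in the difference was not tested.

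The other 4 genes had far fewer molecules and other orders of classes. Frmd8, with 4887 UMIs in all, was highest among the ordered classes in oligodendrocytes at 74.4 to 101 CPM (86.3 ± 10.9 SD, n = 11) and had 5.56 to 9.32 CPM in neurons (7.87 ± 1.42), groups that do not overlap. After thinning to 500 UMIs, 4.27% of oligodendrocyte nuclei and 0.40% of neurons held a Frmd8 UMI. The step from oligodendrocytes to the next class, smooth muscle, held in 7 of 8 libraries and did not pass the exact permutation test (adjusted p = 0.117), and the steps below it did not pass either. Perivascular macrophages held 36.1 CPM of Frmd8 pooled over libraries, from 5 UMIs. Its antisense partner Frmd8os had 298 UMIs in all and a mean of 1.31 CPM in oligodendrocytes.

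Ltbp3, with 5416 UMIs, ran the other way. Leptomeningeal cells (28.6 ± 10.96 CPM) and the Ttr-rich class (27.3 ± 9.57) led. Next came astrocytes (18.0 ± 3.11 CPM), smooth muscle (17.0 ± 24.6, n = 8), neurons (13.05 ± 1.57), pericytes (10.7 ± 6.87), oligodendrocytes (6.68 ± 1.61), endothelium (6.60 ± 8.15) and microglia (2.06 ± 4.96 CPM), each with its SD over 11 libraries except smooth muscle. By mean log2 CPM, which orders the neighbouring pairs tested, smooth muscle came below oligodendrocytes instead. Astrocytes exceeded neurons by 0.44 ± 0.22 on the log2 scale in 11 of 11 libraries (exact adjusted p = 0.0195), and neurons had 10.6 to 16.5 CPM against 4.45 to 9.75 CPM in oligodendrocytes. Slc25a45, with 535 UMIs, was highest in microglia among the ordered classes, at 45.0 ± 25.9 CPM (SD, n = 11). That level rests on 57 UMIs in 1175 nuclei, and 1 of the 11 libraries, ATV:BACE1 replicate 5, had 0 UMIs. Pooled over libraries, microglia held 44.3 CPM of it and perivascular macrophages 43.3 CPM, the latter from 6 UMIs. Endothelium held 9.62 ± 9.03 CPM from 14 UMIs, oligodendrocytes 7.44 ± 2.60, pericytes 6.19 ± 6.18 from 14 UMIs, astrocytes 2.28 ± 1.42 and neurons 0.76 ± 0.23. By mean log2 CPM, which orders the pairs tested, oligodendrocytes came before endothelium instead. The step from astrocytes to neurons passed the test, at 1.03 ± 0.72 on the log2 scale in 10 of 11 libraries (exact adjusted p = 0.026), whereas that from microglia to oligodendrocytes did not (adjusted p = 0.117). Tigd3 was close to absent, with 137 UMIs in all 110304 nuclei, 116 of them in neurons (0.33 ± 0.08 CPM). Pericytes held 0 Tigd3 UMIs, which allows up to 1.35 CPM over their 11 libraries at 3 counts.

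**Figure D4:**
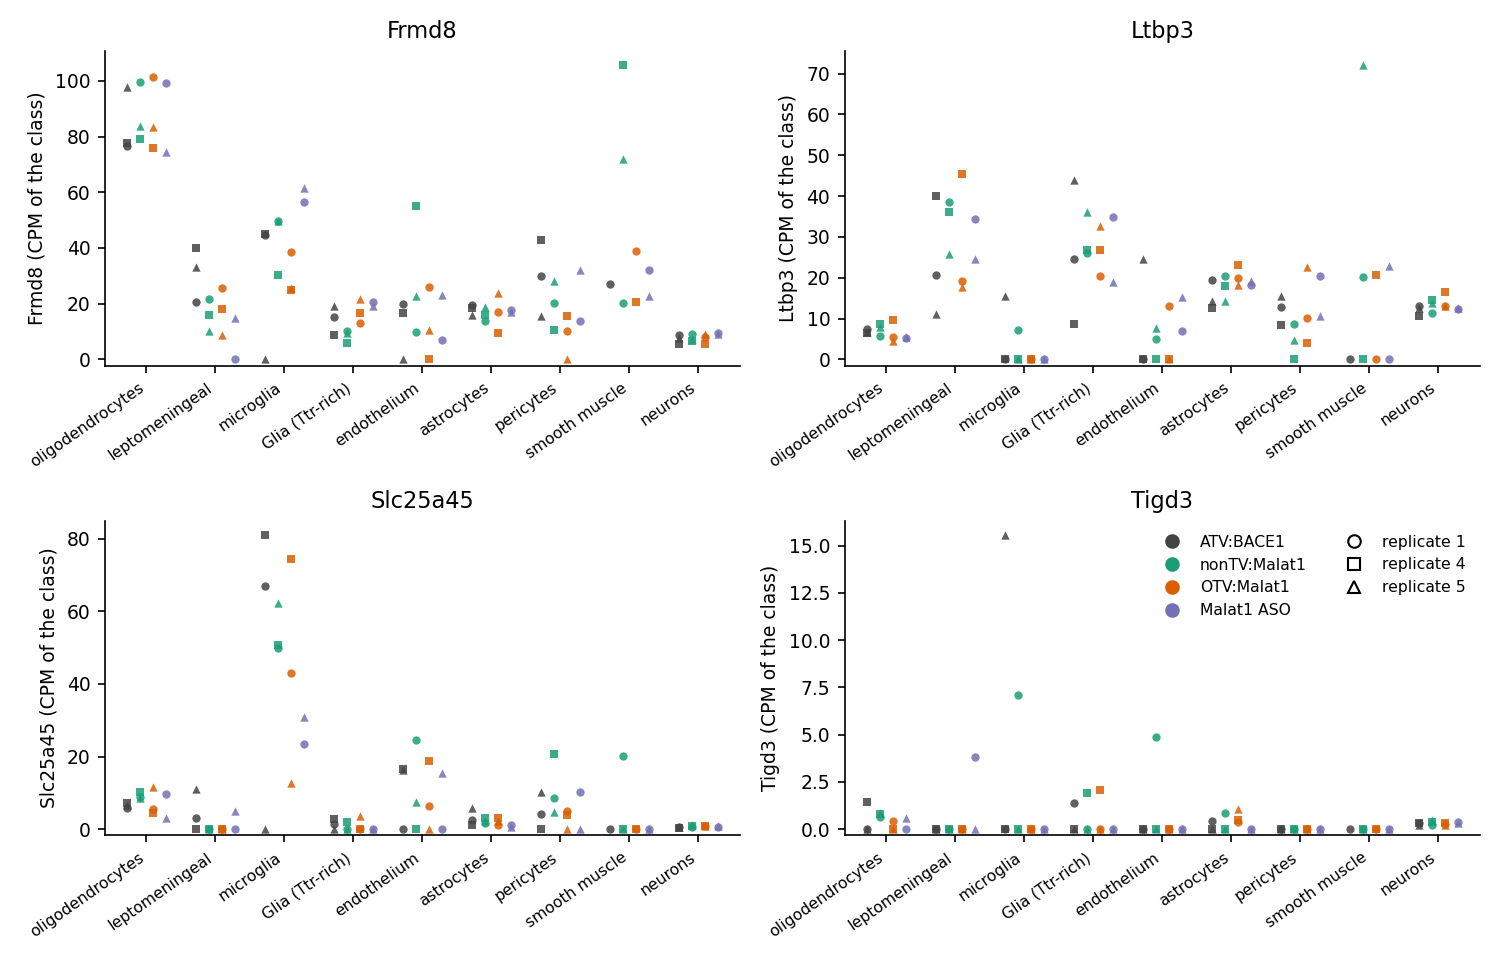
Levels of Frmd8, Ltbp3, Slc25a45 and Tigd3 in CPM by deposited class, 1 point per library with at least 20 nuclei, on linear axes that differ between panels. Colours are dosing groups and shapes replicate numbers. Frmd8 lies at 74.4 to 101 CPM in oligodendrocytes, while the points of Tigd3 above 3 CPM rest on 1 UMI each.

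Genes with the most similar pattern were ranked by Pearson correlation of log2 CPM over 97 sums of a class in a library, among 11982 genes with a mean of at least 10 CPM. For Neat1 these were St6gal1 (r = 0.83), Erbin (0.78), Cdc37l1 (0.78), the myelin gene Mobp (0.78) and Kif13a (0.77). Frmd8 had Abl1 (0.64), Gna12 (0.63) and Tmcc1 (0.61), and Ltbp3 had Rarb (0.70), Wnk2 (0.69) and Zkscan16 (0.68). Slc25a45 had Gna15 (0.69) and the immune cell genes Btk (0.66) and Inpp5d (0.65), and no gene exceeded r = 0.35 with Tigd3. The sums share libraries and depth and are not independent, so these values are descriptions. Neat1 and Malat1 had r = -0.09 over the same sums.

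The dosing groups were compared with edgeR's quasi-likelihood test, with p-values adjusted by Benjamini-Hochberg over all genes of a fit. The targeted RNA is given first. In oligodendrocytes Malat1 had 82273, 94317 and 94565 CPM in ATV:BACE1 replicates 1, 4 and 5 and 18543, 15152 and 20265 CPM in OTV:Malat1. It fell to 18.4% of the control level there (95% interval 13.8 to 24.5%, edgeR adjusted p = 2.87e-06). It also fell in endothelium, to 28.0% (adjusted p = 2.83e-07), and in microglia, to 52.4% (adjusted p = 0.00188). In astrocytes its level was 33.9% of control, in pericytes 57.1% and in neurons 61.6%, where the edgeR adjusted p was 0.368, 0.0897 and 1.00. With the replicate number as a block the edgeR adjusted p was 3.59e-07, 0.00376 and 0.0476 in these 3 classes. After nonTV:Malat1, Malat1 was at 78.6% of control in oligodendrocytes and 74.0% in endothelium. After Malat1 ASO it was at 104% and 60.6% in these classes. None of these 4 values passed, the lowest edgeR adjusted p being 0.325 for Malat1 ASO in endothelium. With the block that value passed (edgeR adjusted p = 0.00109) and the others did not.

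Neat1 did not pass the test in any class while its neighbour fell. In oligodendrocytes it had 1458, 1112 and 1526 CPM in ATV:BACE1 replicates 1, 4 and 5, and 1285, 1338 and 1472 CPM in OTV:Malat1. The OTV:Malat1 values all lay inside the control range. The log2 change was -0.10 ± 0.16 (SE, edgeR adjusted p = 1.00), which is 93.4% of control with a 95% interval of 74.5 to 117%. With the replicate number as a block the interval was 81.4 to 108%. The fall of Malat1 to 18.4% lies outside both intervals. The nonTV:Malat1 libraries had 1232, 1264 and 1377 CPM and the Malat1 ASO libraries 1155 and 1327 CPM, and neither group passed the test against ATV:BACE1. In the oligodendrocyte fit of OTV:Malat1 against ATV:BACE1 1 of 12362 genes was called (0.00809%), and it was Malat1.

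Endothelium, astrocytes and microglia gave the same result with fewer molecules. In endothelium Neat1 had 277, 183 and 491 CPM in ATV:BACE1 and 339, 244 and 421 CPM in OTV:Malat1, from 11 to 60 UMIs a library. Its level after OTV:Malat1 was 96.0% of control (95% interval 61.7 to 150%). In astrocytes the controls had 287, 259 and 317 CPM and the OTV:Malat1 libraries 253, 288 and 349 CPM, so the groups overlap. The level was 96.9% of control (77.2 to 122%). In microglia the values were 268, 377 and 420 CPM against 227, 322 and 651 CPM, and the level was 106% of control (61.1 to 183%). With the replicate number as a block the intervals for endothelium, astrocytes and microglia were 69.7 to 145%, 82.6 to 113% and 72.3 to 146%. In the same contrast, and in that order, 0.0450% of 4449, 0.00% of 14041 and 0.0294% of 3400 genes were called.

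In neurons, the class with the most nuclei, Neat1 had 55.0, 49.3 and 76.85 CPM in ATV:BACE1 and 50.4, 50.7 and 88.4 CPM in OTV:Malat1. Replicate 5 is the high library in both. The level was 102% of control (95% interval 73.2 to 141%). With the replicate number as a block the interval was 90.3 to 112%. Without called doublets the log2 change moved from 0.02 to 0.31. In all nuclei together, the controls had 143, 107 and 139 CPM and the OTV:Malat1 libraries 137, 126 and 141 CPM, and the level was 101% of control (88.7 to 115%). With the block that interval was 93.4 to 110%. The exact two-sided permutation test of library values, in which 3 against 3 cannot go below 0.1, gave 0.9 for Neat1 in oligodendrocytes and 0.8 in neurons.

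**Figure D5:**
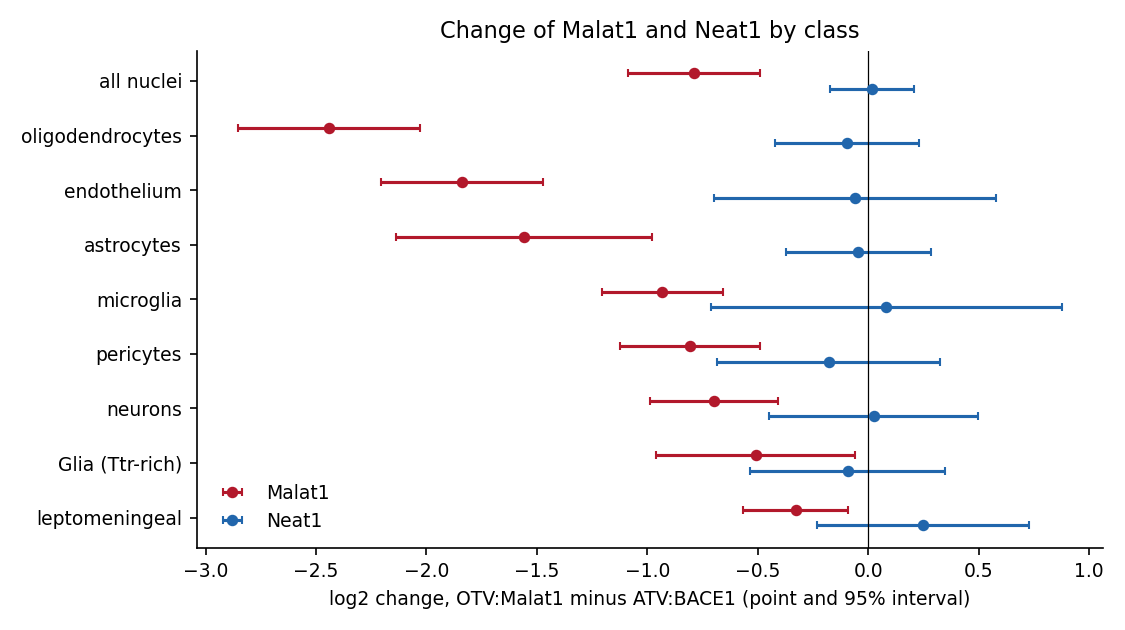
Log2 change of Malat1 (red) and Neat1 (blue) between OTV:Malat1 and ATV:BACE1, 3 libraries each, by class, with points for the edgeR estimate and bars for its 95% interval. Malat1 ranges from -2.44 in oligodendrocytes to -0.33 in leptomeningeal cells, while the Neat1 interval includes 0 in all nuclei and in the 8 classes shown.

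The difference of the change between classes was tested with limma on within-library differences. Oligodendrocytes, astrocytes and endothelium were each compared with neurons, chosen because Malat1 was known to fall most there. The Malat1 test therefore restates that choice and serves as a reference for the other genes. Malat1 fell by 1.74 more on the log2 scale in oligodendrocytes than in neurons (95% interval -2.01 to -1.47, limma adjusted p = 0.000324). In astrocytes and endothelium the Malat1 difference was -0.86 and -1.15 and did not pass (limma adjusted p = 0.119 and 0.644). For Neat1 the difference was -0.09 in oligodendrocytes (95% interval -0.66 to 0.47). It was -0.06 in astrocytes (-0.48 to 0.37) and 0.08 in endothelium (-0.69 to 0.86), with limma adjusted p of 1.00 in the 3 classes. Because the test did not call Malat1 in astrocytes and endothelium either, it cannot decide on Neat1 there. Of all genes tested, 0.00809% were called in oligodendrocytes and 0.00% in the other classes. For Ltbp3 the difference between oligodendrocytes and neurons was -0.40 (95% interval -0.75 to -0.05), which did not survive the adjustment over all genes (limma adjusted p = 1.00).

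Over the 5 contrasts between groups, 92 tests of the 5 genes could be made in the classes, and edgeR called 0. Among all genes, at most 0.0450% were called in a fit, and 0.0225% were called in endothelium for OTV:Malat1 against either nonTV:Malat1 or the free Malat1 ASO. Neat1 passed the filter on low counts in 9 classes, Ltbp3 in 4, Frmd8 in 3, Slc25a45 in 2 and Tigd3 in 1, so the other combinations have levels and no test. Unadjusted p-values under 0.05 were found for 6 of the 92, and for 8325 of the 392681 tests of all genes in the same fits (2.12%). The tests share libraries and genes, and these counts were not compared by a test. Frmd8 in oligodendrocytes had 76.8, 77.6 and 98.0 CPM in ATV:BACE1 and 101, 75.7 and 83.6 CPM in OTV:Malat1, a log2 change of -0.03 ± 0.18 (SE). In neurons its log2 change was 0.01 ± 0.19 and in astrocytes -0.26 ± 0.27 (SE). Ltbp3 in neurons had 12.999, 10.6 and 12.5 CPM in the controls and 12.98, 16.5 and 13.1 CPM in OTV:Malat1, with a log2 change of 0.21 ± 0.14 (SE, edgeR adjusted p = 1.00). The high OTV:Malat1 value is replicate 4, and leaving out 1 library at a time gave changes from 0.065 to 0.29. In oligodendrocytes, where 5 to 14 Ltbp3 UMIs were counted a library, the change was -0.18 ± 0.41 (SE), and it was -0.78 in nuclei with at least 1000 UMIs.

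Slc25a45 was the member whose OTV:Malat1 and ATV:BACE1 libraries did not overlap, in neurons and in all nuclei together. In neurons the controls had 0.61, 0.35 and 0.52 CPM and the OTV:Malat1 libraries 0.77, 0.83 and 0.98 CPM, from 11 to 35 UMIs a library. The log2 change was 0.76 ± 0.28 (SE, edgeR adjusted p = 1.00, where the unadjusted value was 0.0207). Among all genes tested in neurons, 2.64% had OTV:Malat1 libraries that all lay above the controls, and 1.63% had nonTV:Malat1 libraries that did. For 0.82% and 1.18% of genes these libraries all lay below the controls. The nonTV:Malat1 libraries had 0.66, 1.04 and 1.11 CPM in neurons, with a log2 change of 0.92 ± 0.28 against the same controls (edgeR adjusted p = 1.00, where the unadjusted value was 0.00747), and the Malat1 ASO libraries had 0.60 and 0.87 CPM. OTV:Malat1 and nonTV:Malat1 did not differ beyond their spread there (log2 difference -0.16, 95% interval -0.74 to 0.42). In all nuclei the controls had 0.96 to 1.20 CPM, OTV:Malat1 1.32 to 1.35 and nonTV:Malat1 1.503 to 1.72 CPM, where 2.93% and 2.58% of all genes separated in this way. In the opposite direction 0.68% and 1.11% did. The log2 changes in all nuclei were 0.27 ± 0.18 and 0.56 ± 0.18 (SE, edgeR adjusted p = 1.00 for both, where the unadjusted values were 0.161 and 0.0107). These comparisons share their control libraries. In oligodendrocytes the log2 change of Slc25a45 was -0.04 ± 0.47 after OTV:Malat1 and 0.47 ± 0.46 after nonTV:Malat1 (SE), from 5 to 18 UMIs a library. Tigd3 could be tested in neurons, where each library held 7 to 15 UMIs, and its log2 change was -0.09 ± 0.35 (SE).

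The other unadjusted p-values under 0.05 concerned Neat1 in the Ttr-rich class and in leptomeningeal cells. In the Ttr-rich class Neat1 had 583 and 394 CPM in the Malat1 ASO libraries, against 288, 285 and 347 CPM in ATV:BACE1 and 296, 241 and 349 CPM in OTV:Malat1. The log2 change of Malat1 ASO against ATV:BACE1 was 0.65 ± 0.23 (SE, edgeR adjusted p = 0.999, where the unadjusted value was 0.00914). It rests on 2 libraries, and without Malat1 ASO replicate 1 it was 0.32. OTV:Malat1 against Malat1 ASO gave -0.74 (edgeR adjusted p = 0.999), and -0.43 without that library. In leptomeningeal cells the Malat1 ASO libraries had 855 and 848 CPM, the nonTV:Malat1 libraries 959, 720 and 595 CPM and the controls 664, 390 and 553 CPM. The log2 changes were 0.65 ± 0.25 and 0.50 ± 0.23 (SE, edgeR adjusted p = 0.999 and 1.00). That of nonTV:Malat1 was 0.30 without nonTV:Malat1 replicate 1 and 0.33 without ATV:BACE1 replicate 4. OTV:Malat1 had 732, 667 and 527 CPM. Both it and nonTV:Malat1 overlapped the controls, while both Malat1 ASO libraries lay above them. Within replicate numbers, each nonTV:Malat1 library lay above its control, and OTV:Malat1 did so in numbers 1 and 4 but not in 5. Among all genes tested, 8.78% in the Ttr-rich class and 10.3% in leptomeningeal cells had both Malat1 ASO libraries above all controls. In the Ttr-rich class summed choroid plexus and ependymal markers were 4535 and 2631 CPM in Malat1 ASO replicates 1 and 5 against 3436 to 5509 CPM in the controls. Of these markers, Ttr had 4069 and 2354 CPM in Malat1 ASO replicates 1 and 5 against 3050 to 5079 CPM in the controls. The ependymal gene Foxj1 had 30.9 CPM in Malat1 ASO replicate 1 and 55.1 to 85.7 CPM in the other 10 libraries. The myelin gene Mbp had 461 and 763 CPM in Malat1 ASO replicates 1 and 5 against 372 to 680 CPM in the controls. The part of these markers in the Neat1 value was not tested.

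Wider lists, chosen with earlier results of these data known, were counted for context. Of 13 other genes of the Malat1 neighbourhood, 10 were tested in oligodendrocytes, and after OTV:Malat1 0 were called, 5 lay higher and 5 lower, with a median log2 change of -0.05 against 0.00 over all 12362 genes. The largest values were those of Fam89b (0.60 ± 0.48) and Ehbp1l1 (0.39 ± 0.45, SE), from 0.97 to 12.4 and 2.66 to 11.6 CPM over the 11 libraries. Of 16 proteins of paraspeckles or of Neat1 processing, all were tested, 0 were called, 5 lay higher and 11 lower, with a median of -0.04. The largest were the RNA-binding proteins Tardbp (0.21 ± 0.17) and Hnrnpa1 (-0.21 ± 0.26, SE). Over the contrasts, in all nuclei together and in the classes, 0 of 270 tests of the neighbourhood and 0 of 688 of the paraspeckle list were called.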

How the data were processed

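Nuclei were captured by droplet single-nucleus RNA sequencing and, per the submitters' processing notes, handled with Cell Ranger 5.0.0 and Seurat 4 on the mm10 build. The deposited matrix holds UMI counts per gene symbol and nucleus, with no normalization. Its column sums equalled the deposited totals in 110304 nuclei. The metadata deposited by the authors also give the percent of mitochondrial UMIs, class prediction scores and doublet scores as a fraction, class names, clusters and batches. Positions and transcripts come from GENCODE M21 on the same build.

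Counts were summed per library and class with at least 20 nuclei and fitted with edgeR 4.0.16 (glmQLFit, glmQLFTest, TMM, filterByExpr) in R 4.3.3, all 4 groups in 1 fit. The threshold was an adjusted p of 0.05. Differences between classes used limma 3.58.1 on log2 CPM (prior count 2). Intervals are at 95%. They and the limits for counts of 0 at 3 counts cover counting error or spread between libraries only. Scripts were tested on simulated data. The remaining steps used Python 3.11.15 with pandas 2.3.3, scipy 1.17.1, matplotlib 3.10.9 and numpy 2.4.6. Alternatives were DESeq2 1.42.0, total counts, Malat1 left out, no count filter, the replicate block, leaving out each library, called doublets (10.4% of nuclei, kept otherwise), shallow nuclei, classes under 50 nuclei or prediction scores under 0.8.

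Libraries with the same number had correlated deviations from their group means over 15333 genes (r from 0.45 to 0.82 over 15 pairs). The pairing comes from the deposited batch column, which follows the replicate numbers. The fit without the block was the one fixed as main. The named genes are the 5 members, the genes most correlated with each, and list genes that were called or, with none called, the 2 with the largest change in oligodendrocytes. The members and lists were chosen with earlier results of these data known. A marker gene and a neighbouring gene of these lists are not reported here and were left out of the counts and sums.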

Additional observations from a re-analysis of the deposited data

Results flagged for a closer look

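One difference between classes under the same contrast passed its test, in a class chosen because Malat1 was known to fall most there. The Malat1 change after OTV:Malat1 differed between oligodendrocytes and neurons by -1.74 on the log2 scale (limma adjusted p = 0.000324), beside a Neat1 difference of -0.09 in the same libraries.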

How the results depend on the processing

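Of 834 values recomputed for 52 results under the alternatives, 770 kept their direction and side of the threshold, 55 changed sign and 9 moved. No test of the 5 genes was called in any of 2535 tests over all settings (lowest adjusted p = 0.432). The values below are log2 changes after OTV:Malat1 against ATV:BACE1, and the cause of each move was not tested. With total counts in place of TMM, which moved the median of all genes in oligodendrocytes to 0.10, Neat1 was 0.00096 in oligodendrocytes, 0.040 in astrocytes and 0.015 in endothelium, and in oligodendrocytes Frmd8 was 0.068 and Slc25a45 0.071. With at least 1000 UMIs a nucleus, Ltbp3 in oligodendrocytes moved from -0.18 to -0.78, Slc25a45 there from -0.04 to -0.55, Frmd8 there was 0.14, Ltbp3 in the Ttr-rich class 0.0022 and Neat1 in microglia -0.024. Without called doublets, Neat1 in neurons moved from 0.02 to 0.31, and it was -0.0014 in all nuclei and -0.15 in microglia, and 7 neighbouring pairs of classes in place of 4 passed the test of levels. Frmd8 in all nuclei was -0.00055 with DESeq2 and -0.00097 with Malat1 left out, and Ltbp3 in the Ttr-rich class was 0.0063 with prediction scores of at least 0.8. With the replicate number as a block, Ltbp3 in the Ttr-rich class was 0.025 and Neat1 in endothelium 0.0088. The block called none of the 5 genes. For Malat1 against ATV:BACE1 it added calls in astrocytes, pericytes and neurons after OTV:Malat1 and in endothelium after Malat1 ASO (edgeR adjusted p = 0.00109), and it added calls in other contrasts too.

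Leaving out 1 library at a time moved Neat1 from -0.053 to 0.058 in all nuclei, -0.25 to 0.21 in neurons, -0.14 to 0.035 in astrocytes, -0.22 to 0.027 in the Ttr-rich class, -0.48 to 0.43 in microglia, -0.26 to 0.39 in endothelium and -0.35 to 0.10 in pericytes. In oligodendrocytes it stayed between -0.19 and -0.026. Frmd8 ran from -0.14 to 0.15 in all nuclei, -0.11 to 0.18 in neurons, -0.18 to 0.065 in oligodendrocytes and -0.46 to 0.022 in astrocytes. Ltbp3 ran from -0.55 to 0.0076 in oligodendrocytes and -0.34 to 0.44 in the Ttr-rich class, Slc25a45 from -0.43 to 0.15 in oligodendrocytes, and Tigd3 from -0.26 to 0.046 in all nuclei and -0.25 to 0.034 in neurons. The Neat1 difference from neurons ran from -0.21 to 0.13 in oligodendrocytes, -0.17 to 0.097 in astrocytes and -0.15 to 0.26 in endothelium. That of Ltbp3 in oligodendrocytes ran from -0.55 to -0.25. Depth limits Tigd3 and Slc25a45 most, with 137 and 535 UMIs in all.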
